A study of Mus musculus with 20 samples.

Results

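Transcripts of the nuclear Nduf genes, which encode the subunits and many of the assembly factors of mitochondrial complex I, were followed in mouse macrophages that were resting or classically activated, with and without inducible nitric oxide synthase or aldo-keto reductase Akr1a1. The members were all protein-coding genes whose name begins with Nduf, which gave 48 of the 56748 genes in the count tables, spread over 18 chromosomes. By place in the complex they were 8 subunits of the NADH-oxidizing N module, 8 of the quinone-reducing Q module, 9 of the proximal and 11 of the distal membrane arm, and the acyl carrier subunit Ndufab1, which made 37 structural subunits. The others were 8 Ndufaf assembly factors, Ndufa4 with its paralog Ndufa4l2, and Ndufb11b. Genes needed at least 10 counts in total to be tested, and 47 members passed in each experiment. Ndufb11b held 1 count over the 12 libraries of the first experiment and 0 over the 8 of the second.

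Complex I oxidizes NADH in the mitochondrial matrix, passes the electrons along a chain of iron-sulfur clusters to ubiquinone and pumps protons across the inner membrane. Its matrix arm holds the N and Q modules, and its membrane arm holds the proton channels, whose core proteins are encoded by mitochondrial DNA and are surrounded by nuclear accessory subunits. In macrophages activated with LPS and interferon-γ (IFNγ), respiration is known to fall while inducible nitric oxide synthase (iNOS, gene Nos2) produces nitric oxide.

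The study asked how nitric oxide shapes the transcripts of activated macrophages, and its poly-A RNA-seq counts came from 2 experiments. In the first, wildtype and iNOS KO cells were either untreated or given LPS at 50 ng/mL plus IFNγ, at 30 ng/mL by the labels, over 48 h, which made 4 groups of 3 libraries (A, B and C). The labels call these cells bone marrow-derived macrophages (BMDM) of wildtype or iNOS KO C57BL/6J mice aged 6 to 12 weeks, whereas the study's methods describe this sequencing in the mouse macrophage line RAW264.7, so they are named here as the libraries labelled BMDM. In the second, wildtype and Akr1a1 KO RAW264.7 cells were untreated or given the same dose of LPS plus IFNγ at 10 ng/mL over 48 h, which made 4 groups of 2 libraries (A and B). If the first libraries are BMDM, the iNOS KO allele is carried in every cell of the mice and marrow was pooled by genotype. Libraries of a genotype would then share pooled marrow, and their spread would not measure differences between animals. The Akr1a1 KO cells were single-cell clones made with CRISPR-Cas9. For replicate B of both unstimulated RAW264.7 groups the title says stimulated and the treatment field unstimulated, and the treatment field was used.

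Libraries held 15072109 to 18878107 counts in the first experiment and 11876719 to 44583327 in the second. Values are CPM, the counts of a gene scaled to the size of its library, with library sizes set by TMM, which assumes that most genes do not change. Nos2 lay between 10370.2 and 11533 CPM in stimulated wildtype and between 870.5 and 912 CPM in stimulated iNOS KO libraries, a log2 difference of -3.64 ± 0.06 (SE, edgeR adjusted p = 4.96e-15), and it had 0 counts in all unstimulated iNOS KO libraries. In RAW264.7 cells Nos2 lay between 4.21 and 30.7 CPM in unstimulated wildtype and between 38.1 and 54.7 CPM in unstimulated Akr1a1 KO libraries. Every stimulated RAW264.7 library had at least 4155 CPM, so the unstimulated replicates B, whose labels conflict, lay far below the stimulated level. Akr1a1 transcript was not absent from the Akr1a1 KO clones, at 21.8 to 206 CPM unstimulated and 212 to 370.4 CPM stimulated, against 427 to 488 and 576 to 675 CPM in wildtype. The log2 differences were -2.01 ± 0.80 unstimulated (SE, edgeR adjusted p = 0.560) and -1.10 ± 0.77 stimulated (SE, edgeR adjusted p = 0.643), so neither passed the test, and counts per gene do not tell an edited transcript from an intact one. Macrophage markers, a list of 8 genes, summed to 4742 to 10070 CPM and 2994 to 9884 CPM in the 2 experiments, lowest in unstimulated and highest in stimulated iNOS KO libraries in the first. Lyz2 alone held 3234 to 7363 CPM and 1080 to 7101 CPM. Mertk reached at most 6.59 and 0.134 CPM, and the lowest Itgam values were 26.5 and 1.81 CPM. Of a neutrophil list of 5 genes only S100a8 had a group mean above 1 CPM, and that list summed to 0.433 to 1.11 CPM in unstimulated libraries labelled BMDM and to 34.7 to 61.2 CPM in stimulated ones, and to 0.218 to 0.537 and 121 to 420 CPM in RAW264.7 libraries. Ly6g was at 0 in every library labelled BMDM. A fibroblast list of 5 genes, nearly all of it Dcn and Pdgfra, summed to 0 to 0.293 CPM in unstimulated libraries labelled BMDM, 3.58 to 4.92 CPM in stimulated wildtype and 10.4 to 15.8 CPM in stimulated iNOS KO libraries, without overlap, and to at most 2.53 CPM in RAW264.7 libraries, with Col3a1 at 0 in all 20. A lymphocyte list stayed at or below 0.693 CPM. The part of these marker differences in the results was not tested.

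The promoters of 3 members are printed first, because the letters that bind known regulators of respiratory genes can be read in them and because their genes stand on both sides of the main result. They run from 150 bases before the transcription start to the base before it, in RefSeq coordinates of GRCm38.p6, 5′ to 3′ on the strand of the gene, with motif matches in capitals. Ndufb4 and Ndufb7, accessory subunits of the distal membrane arm, fell with stimulation in wildtype and not in iNOS KO cells, whereas Ndufaf4, a factor that helps to assemble the Q module, fell in both.
Ndufb4 (chr16:37654369-37654518, minus strand): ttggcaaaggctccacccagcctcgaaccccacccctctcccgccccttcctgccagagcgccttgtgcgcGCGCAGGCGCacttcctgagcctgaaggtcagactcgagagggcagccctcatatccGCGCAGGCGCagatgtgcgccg
Ndufb7 (chr8:83566608-83566757, plus strand): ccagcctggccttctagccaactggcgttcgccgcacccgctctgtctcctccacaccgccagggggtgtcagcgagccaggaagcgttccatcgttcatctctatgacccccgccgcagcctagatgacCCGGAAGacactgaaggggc
Ndufaf4 (chr4:24897933-24898082, plus strand): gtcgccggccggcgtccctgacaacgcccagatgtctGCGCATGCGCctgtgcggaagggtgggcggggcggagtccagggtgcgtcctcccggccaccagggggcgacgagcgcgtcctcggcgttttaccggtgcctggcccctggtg

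The letters GCGCA and GCGC with any 1 base between them, bound by nuclear respiratory factor 1, occur in the Ndufb4 and Ndufaf4 stretches, and CCGGAAG, the core bound by ETS factors such as GABP, in that of Ndufb7. Promoters from 250 bases before to 50 after the start were in the RefSeq table for 41 of the 48 members and were searched on both strands. The first motif was found in 9 of the 41 members, against 7.17% of the 17491 genes in the table, and CCGGAAG in 6, against 12.9%. AAGATGGC, the core letters of YY1, was found in 8, against 3.57%, and in all 8 it lay after the start, between bases 11 and 46. CCGGAAG and AAGATGGC can share the letters AAG, but no match of 1 motif overlapped that of another here, and 21 of the 41 members held at least 1. A match describes these letters only, and its part in the responses was not tested.

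In unstimulated wildtype libraries labelled BMDM, transcript levels per kilobase of gene model differed widely among subunits of the same complex. Ndufs8, which carries iron-sulfur clusters in the Q module, was highest at 111 ± 5.47 CPM per kb (SD, n = 3). Also high were Ndufa2 of the N module at 102 ± 3.12 and Ndufa8 of the membrane arm at 89 ± 2.63 CPM per kb. The lowest structural subunit was Ndufb2 at 0.576 CPM per kb, on a gene model of 5628 bases. Ndufb2 also overlaps Braf on the other strand, with 677 counts against 8817 in libraries labelled BMDM. The part of this overlap in its level was not tested. A gene model can be longer than a transcript, at 6883 against 3479 bases for Ndufab1, so the order depends in part on the annotation. The median of the 37 structural subunits was 28.2 CPM per kb and that of the 8 Ndufaf factors 8.69, so the assembly factors were the scarcer transcripts on this scale. Along the order of subunits, 20 of 36 neighbouring pairs had overlapping libraries and cannot be ranked against each other. Ndufa2 led in stimulated wildtype libraries, at 111 ± 18.6 CPM per kb, where Ndufs8 had dropped to 28.9 ± 1.26.

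Stimulation lowered most complex I transcripts in wildtype libraries labelled BMDM. Of 47 members tested, 28 fell and 7 rose at an adjusted p under 0.05 (quasi-likelihood test of edgeR, p-values adjusted over all genes tested by Benjamini and Hochberg), where 28.5% of the 18691 genes fell and 32.4% rose. The median log2 fold change of the members was -0.42, against 0.07 over all genes. The summed level of the 37 structural subunits went from 2088 ± 55.4 CPM (SD, n = 3) to 1541 ± 116 CPM, which is 73.8% of the unstimulated mean. Every stimulated library lay below every unstimulated one for 28 members and above for 7, where this held for 31.9% and 36.0% of all genes. Past an absolute log2 fold change of 1 were 6 lower and 0 higher members, where 15.7% and 19.7% of all genes were. In bulk RNA, fewer cells of a type and less RNA per cell cannot be told apart. When library totals were used without TMM, an alternative added after the values were seen, the median of all genes moved by -0.46 on the log2 scale, 41 members fell and 0 rose, so the rises given for this comparison hold only relative to the other genes. With each library left out in turn, 30 of the 35 calls were kept every time, and without replicate C of stimulated wildtype cells 4 members rose.

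**Figure D1:**
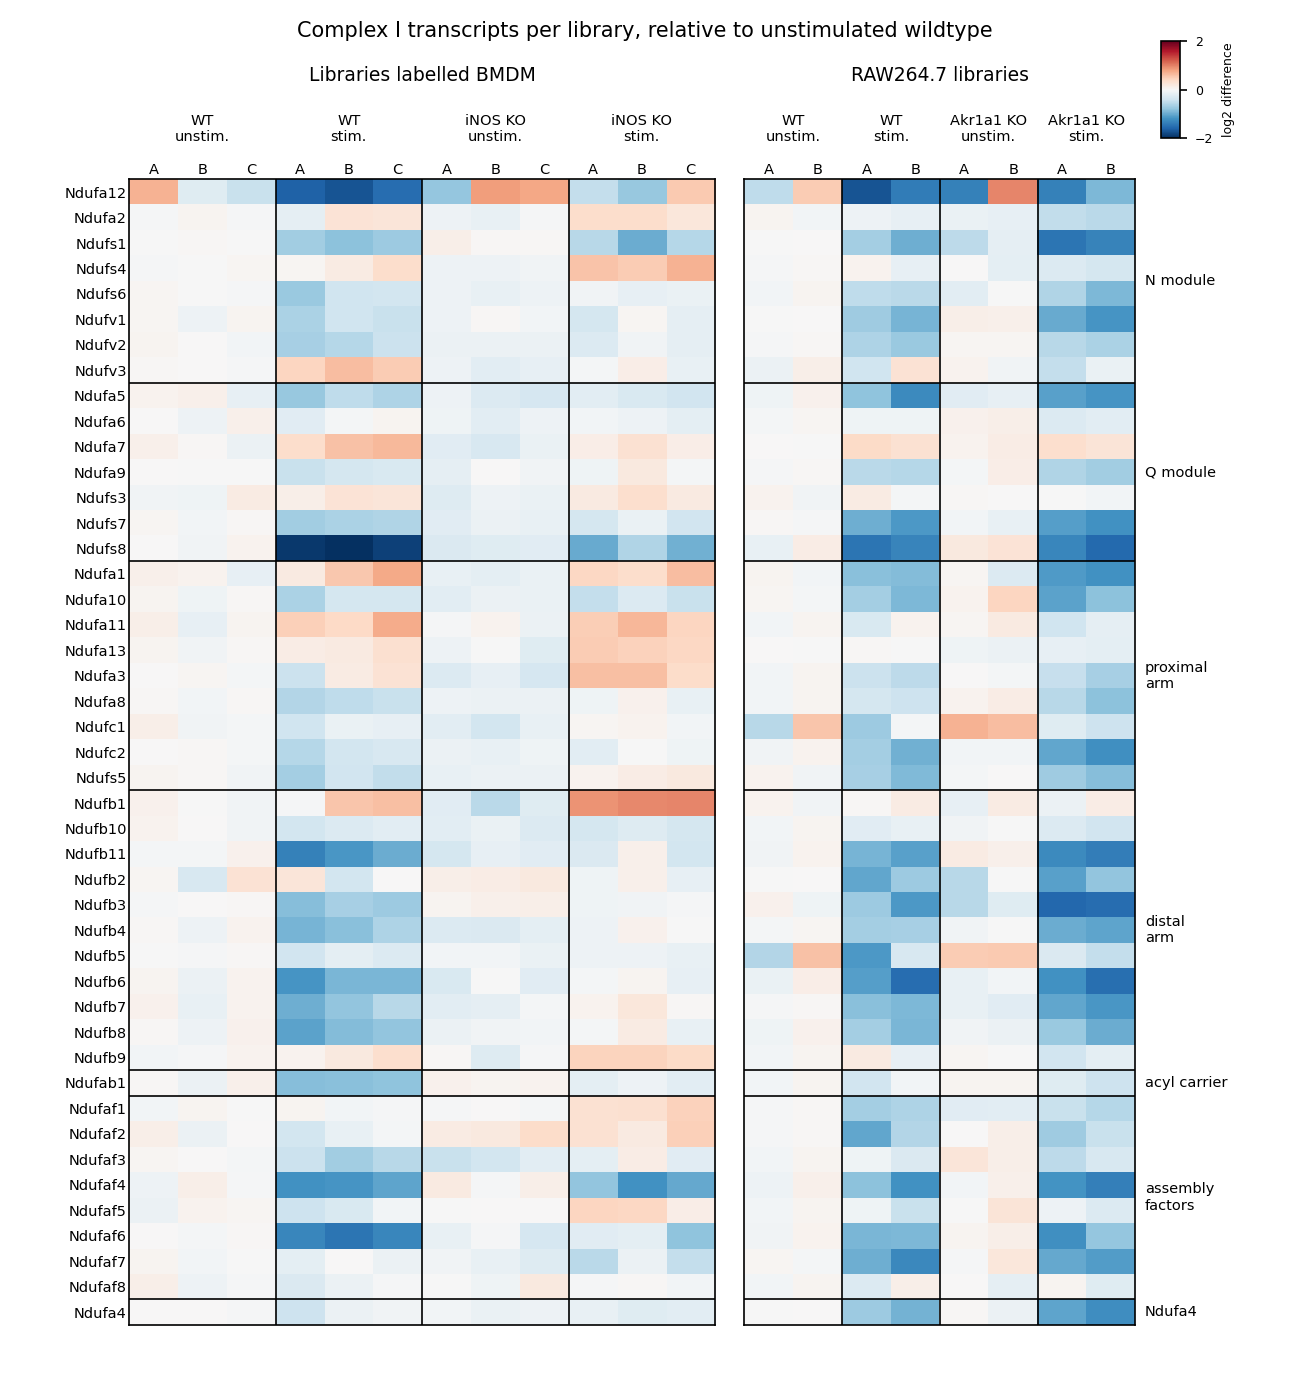
Level of each of 45 members in each library as a colour, the log2 of CPM plus 0.5 minus its mean in unstimulated wildtype libraries of the same experiment (blue lower, red higher), with members grouped by place in the complex and libraries in columns. Most members are blue in stimulated wildtype libraries labelled BMDM and near white in stimulated iNOS KO libraries, whereas both stimulated groups of RAW264.7 cells are blue.

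In the N module, which takes electrons from NADH, 5 of 8 subunits fell and 1 rose in stimulated wildtype cells labelled BMDM, with a median of -0.50. The core subunits Ndufv1, which binds NADH and flavin, Ndufv2, with an iron-sulfur cluster, and Ndufs1, with several of them, all fell, with log2 fold changes of -0.49 ± 0.09 (SE, edgeR adjusted p = 0.000209), -0.56 ± 0.08 (SE, edgeR adjusted p = 6.07e-06) and -0.75 ± 0.09 (SE, edgeR adjusted p = 2.32e-06). Ndufv3, an accessory subunit beside Ndufv1 and Ndufv2 (ENSMUSG00000024038, chromosome 17, 31739089 to 31750305, plus strand as the tables list it), went the other way. Its CPM was 31.7, 31.3 and 30.9 in unstimulated and 42.4, 48.1 and 44.9 in stimulated wildtype libraries. The groups did not overlap, and the log2 fold change was 0.53 ± 0.08 (SE, edgeR adjusted p = 3.78e-05), with a value of 0.06 without TMM.

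In the Q module 5 of 8 subunits fell and 2 rose, with a median of -0.44. Ndufs8 (ENSMUSG00000059734, chromosome 19, 3958863 to 3962774, minus strand) fell the most of all members. Its CPM was 143, 136 and 150.2 in unstimulated and 37.3, 35.7 and 39 in stimulated wildtype libraries, so the stimulated libraries lay far below, and the log2 fold change was -1.94 ± 0.10 (SE, edgeR adjusted p = 1.25e-11). Ndufs7, which lines the quinone site, changed by -0.65 ± 0.08 (SE, edgeR adjusted p = 9.42e-07). The core subunit Ndufs3 had the other sign and rose by 0.21 ± 0.09 (SE, edgeR adjusted p = 0.0446), a call lost with any of 6 libraries left out, and without TMM its value was -0.25, so its direction depends on the scaling. Ndufa7, an accessory subunit of this module, rose by 0.54 ± 0.10 (SE, edgeR adjusted p = 0.000114), and without TMM its value was 0.07.

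Of the 9 proximal membrane arm subunits 5 fell and 3 rose, and the highest value was that of Ndufa11, which sits beside the core membrane subunits, at 0.55 ± 0.11 (SE, edgeR adjusted p = 0.000264), and without TMM at 0.08. The distal membrane arm had the lowest median of the modules with more than 1 gene, -0.76, with 8 of 11 subunits lower and only Ndufb1 higher, a call lost with any of 3 libraries left out (0.30 to 0.38) and with the other sign without TMM. Ndufb11 (ENSMUSG00000031059, chromosome X, 20481565 to 20483858, minus strand), a single-span membrane subunit, had CPM values of 63.2, 63 and 68.6 unstimulated and 25.1, 28.7 and 32.4 stimulated. Ndufb6, also of this arm, had 38.6, 34.2 and 38.8 CPM unstimulated and 16.1, 19.5 and 19.5 stimulated. Neither gene's groups overlapped, and the log2 fold changes were -1.18 ± 0.12 (SE, edgeR adjusted p = 1.22e-07) and -1.02 ± 0.11 (SE, edgeR adjusted p = 2.1e-07). Ndufab1, the mitochondrial acyl carrier protein, which serves in fatty acid synthesis as well as in the complex, had a log2 fold change of -0.84 ± 0.07 (SE, edgeR adjusted p = 2.9e-08).

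Of the 8 assembly factors 3 fell in wildtype, and the other 5 did not pass the test. Ndufaf6, which acts early in assembly, had 11.6, 11.2 and 11.6 CPM unstimulated and 4.36, 3.85 and 4.37 CPM stimulated. Ndufaf4 had 29.4, 34.2 and 30.9 CPM unstimulated and 13.3, 13.6 and 14.8 CPM stimulated. The stimulated libraries lay below all unstimulated ones for both, with log2 fold changes of -1.45 ± 0.16 (SE, edgeR adjusted p = 5.83e-07) and -1.18 ± 0.11 (SE, edgeR adjusted p = 5.2e-08). Ndufaf3, the partner of Ndufaf4 in Q module assembly, changed by -0.58 ± 0.12 (SE, edgeR adjusted p = 0.00039).

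In iNOS KO cells labelled BMDM the same stimulation gave a different picture: 16 members rose and 5 fell, where 27.3% of all genes rose and 24.6% fell, and the median was 0.07, against 0.00 over all genes. Without replicate B of stimulated iNOS KO cells 10 members fell. Without TMM the median of all genes moved by -0.42, the members' median became -0.35, and 3 members rose and 29 fell, so the direction of members in these cells depends on the scaling. The summed level of the structural subunits was 1933 ± 34.1 CPM unstimulated and 1957 ± 112 CPM stimulated (SD, n = 3). Every stimulated library lay above every unstimulated one for 16 members and below for 8, where this held for 29.3% and 28.1% of all genes. Only Ndufb1 rose and only Ndufaf4 fell past an absolute log2 fold change of 1, where 14.0% and 8.78% of all genes did. By module on the TMM scale, 6 of 9 proximal and 4 of 11 distal subunits rose, with medians of 0.27 and 0.08, and 2 of 8 in each of the N module, the Q module and the Ndufaf factors.

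The largest rises in stimulated iNOS KO cells, on the TMM scale, were those of Ndufb1, Ndufa3 and Ndufs4. Ndufb1, a small subunit of the distal arm, had 15, 12 and 14.8 CPM unstimulated and 33.4, 34.6 and 35.3 CPM stimulated, without overlap, a log2 fold change of 1.30 ± 0.14 (SE, edgeR adjusted p = 4.25e-07). Ndufa3 of the proximal arm and Ndufs4, an N module subunit whose loss causes Leigh syndrome, rose by 0.79 ± 0.14 (SE, edgeR adjusted p = 0.000118) and 0.69 ± 0.08 (SE, edgeR adjusted p = 2.07e-06). The 5 members that fell were Ndufaf4, Ndufs1, Ndufs8, Ndufab1 and the proximal arm subunit Ndufa10, at -1.11 ± 0.11 (SE, edgeR adjusted p = 1.56e-07), -0.75 ± 0.09 (SE, edgeR adjusted p = 3.8e-06), -0.60 ± 0.09 (SE, edgeR adjusted p = 3.27e-05), -0.24 ± 0.07 (SE, edgeR adjusted p = 0.00987) and -0.24 ± 0.08 (SE, edgeR adjusted p = 0.0216), the last of them lost with any of 4 libraries left out (-0.24 to -0.22). The 2 responses share no library, and all 5 had also fallen in wildtype, where they were 17.9% of the 28. Of the members that rose, 6 did so in both genotypes, 85.7% of those in wildtype and 37.5% of those in iNOS KO cells. Overlaps over all genes are not given here, so those of the members are not shown to be particular to them. Ndufb4, Ndufb7, Ndufc1 and Ndufs5 fell in wildtype and rose in iNOS KO cells on the TMM scale, by at most 0.27. All 4 rises had the other sign without TMM, and those of Ndufb4, Ndufb7 and Ndufc1 were lost with any of 4, 7 and 2 libraries left out, as was the wildtype fall of Ndufc1 with any of 5 (-0.25 to -0.15).

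Before stimulation no member passed the test between genotypes. In unstimulated libraries labelled BMDM 0 members were higher and 0 lower in iNOS KO than in wildtype by edgeR, where 1.88% and 4.09% of all genes were, 10 members had an unadjusted p under 0.05, and DESeq2 also called 0. The median was -0.12, and Ndufs8 had -0.26 ± 0.09 (SE, edgeR adjusted p = 0.122). In 22 members every iNOS KO library lay below every wildtype library and in 2 above, where 17.7% and 11.4% of all genes did so. Leaving out replicate B of stimulated iNOS KO cells, which enters this test through the shared dispersion, made 7 members lower: Ndufs8, Ndufs7, Ndufb11, Ndufb10, Ndufc1, Ndufb4 and Ndufaf3.

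After stimulation, most members were higher in iNOS KO than in wildtype cells labelled BMDM: 29 were higher and 2 lower, where 24.2% of all genes were higher and 24.2% lower, with a median log2 difference of 0.33. Every iNOS KO library lay above every wildtype library for 31 members and below for 2, where this held for 25.8% and 27.4% of all genes. The interaction, which is the response of iNOS KO minus that of wildtype, was positive and called for 27 members and negative and called for 1, where 20.0% and 15.4% of all genes were, with a median of 0.44 against -0.02 over all genes. Leaving TMM out moved the median of all genes by 0.10 in the first and 0.04 in the second, less than in the single responses. These comparisons use the same stimulated libraries as the responses above and are not separate evidence. With an absolute log2 fold change over 1 asked for as well, 3 members were above and 0 below wildtype in stimulated iNOS KO cells, where 10.7% and 8.87% of all genes were. The interaction passed this limit for 6 members upward and 0 downward, where 9.34% and 5.69% of all genes did. With each library left out in turn, 27 of the 31 calls between stimulated genotypes and 24 of the 28 interaction calls were kept every time, against 16 of the 21 calls of the stimulation response in iNOS KO cells.

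**Figure D2:**
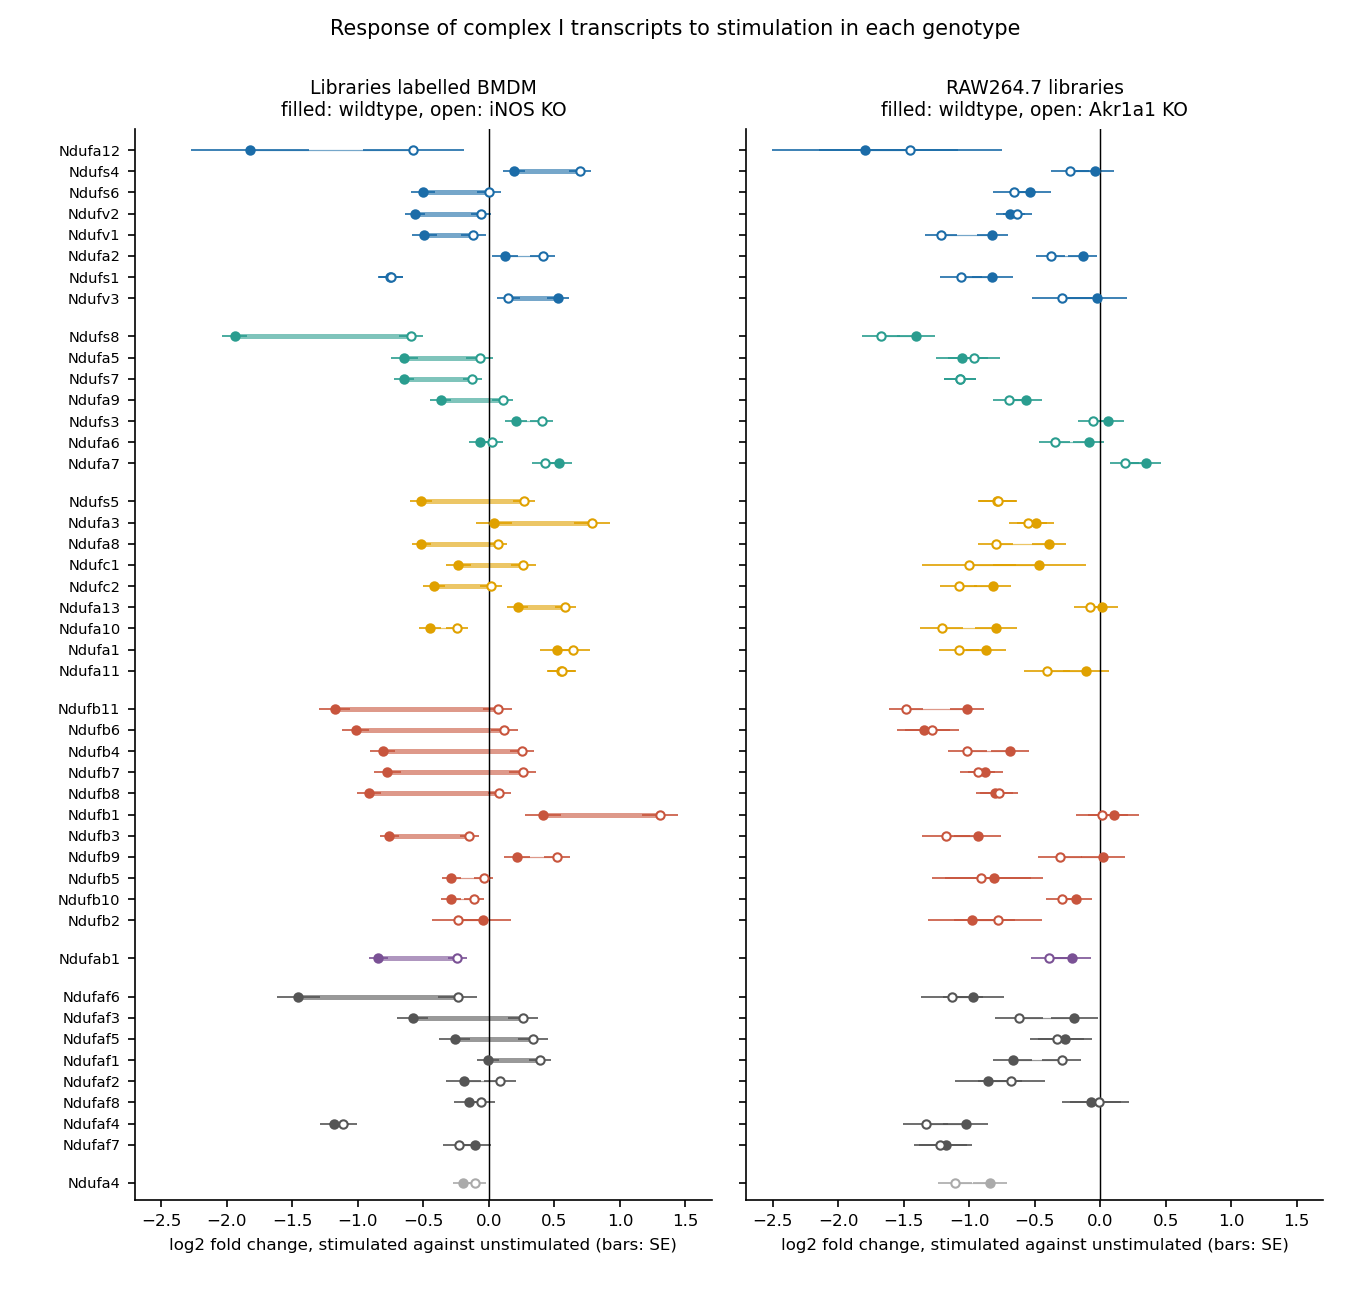
Log2 fold change with stimulation (x axis, bars are SE) of 45 members with counts above the floor, in wildtype (filled) and knockout (open) cells, by experiment and module, with a thick line joining the pair where the interaction had an adjusted p under 0.05. In the libraries labelled BMDM the open points of most members lie to the right of the filled ones and 27 pairs carry a thick line, whereas no pair does in RAW264.7 cells.

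The distal membrane arm had the largest median difference of the modules with more than 1 gene. Of its 11 subunits 7 were higher in stimulated iNOS KO cells, with a median of 0.69, and the same number had a positive interaction, with a median of 0.89. Ndufb11 had 50.9, 57.8 and 55.5 CPM in unstimulated and 52.8, 69.3 and 50.2 CPM in stimulated iNOS KO libraries. Ndufb6 had 30.1, 37 and 31.8 CPM and 35.9, 38.4 and 33.1 CPM in these groups. For both the unstimulated and stimulated iNOS KO libraries overlapped, and all stimulated iNOS KO libraries lay above all stimulated wildtype ones. Their interactions were 1.24 ± 0.16 (SE, edgeR adjusted p = 1.07e-05) and 1.14 ± 0.15 (SE, edgeR adjusted p = 9.18e-06), and their differences between stimulated genotypes 1.00 ± 0.12 (SE, edgeR adjusted p = 1.85e-06) and 0.96 ± 0.11 (SE, edgeR adjusted p = 8.87e-07).

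Ndufb4, Ndufb7 and Ndufb8, all accessory subunits of the distal arm, followed with interactions of 1.06 ± 0.13 (SE, edgeR adjusted p = 7.15e-06), 1.03 ± 0.15 (SE, edgeR adjusted p = 2.91e-05) and 1.00 ± 0.13 (SE, edgeR adjusted p = 8.02e-06). Ndufb4 had 34, 31.1 and 34.9 CPM in unstimulated and 17.2, 18.4 and 21.6 CPM in stimulated wildtype libraries. In iNOS KO libraries it had 27.4, 27.1 and 29 and 30.9, 35.5 and 33.1 CPM. It was thus low in stimulated wildtype cells alone of the 4 groups, with log2 fold changes of -0.81 ± 0.10 in wildtype and 0.25 ± 0.09 in iNOS KO cells (SE). Ndufb1, in the same arm, had risen in both genotypes on the TMM scale, and its interaction was 0.89 ± 0.19 (SE, edgeR adjusted p = 0.00155). Ndufb2, Ndufb5, Ndufb9 and Ndufb10, the remaining subunits, had interactions between -0.19 and 0.31 that did not pass the test.

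Ndufs8 had the largest called interaction of all members. Its CPM was 116, 121 and 122 in unstimulated and 70.7, 94.1 and 73.1 in stimulated iNOS KO libraries, so it fell in both genotypes but less so without iNOS. The interaction was 1.34 ± 0.13 (SE, edgeR adjusted p = 4.06e-07) and the difference between stimulated genotypes 1.09 ± 0.10 (SE, edgeR adjusted p = 5.5e-08). The core subunits Ndufs7 and Ndufs3 of the Q module had smaller values, with interactions of 0.52 ± 0.11 (SE, edgeR adjusted p = 0.000895) and 0.19 ± 0.12 (SE, edgeR adjusted p = 0.244), the last not past the test. The call of Ndufv1 for the interaction, in the N module, was lost with any of 5 libraries left out, at 0.31 to 0.37. In the whole Q module 5 of 8 subunits had a positive interaction, with a median of 0.40.

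In the N module 4 subunits had a positive and 1 a negative interaction. Among its core subunits Ndufv1 and Ndufv2 had 0.37 ± 0.13 (SE, edgeR adjusted p = 0.0349) and 0.50 ± 0.11 (SE, edgeR adjusted p = 0.00142), whereas Ndufs1 had 0.00 ± 0.13 (SE, edgeR adjusted p = 1). Ndufs1 had 125, 127 and 125 and 77.4, 70.8 and 76.2 CPM in unstimulated and stimulated wildtype libraries, and 136, 127 and 128 and 85.4, 62.9 and 85 CPM in iNOS KO libraries. It fell in both genotypes, and the stimulated groups overlapped. Ndufv3 had the negative interaction, -0.38 ± 0.12 (SE, edgeR adjusted p = 0.0212), a call lost without replicate B of stimulated wildtype (-0.33) or replicate A of unstimulated iNOS KO cells (-0.35), with 29.1, 26.9 and 27.8 CPM in unstimulated and 30.5, 34.5 and 28.1 CPM in stimulated iNOS KO libraries. Its stimulated level was lower in iNOS KO than in wildtype cells, with a log2 difference of -0.54 ± 0.09 (SE, edgeR adjusted p = 4.68e-05), and the only other member lower there was Ndufa7, at -0.34 ± 0.10 (SE, edgeR adjusted p = 0.00676).

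**Figure D3:**
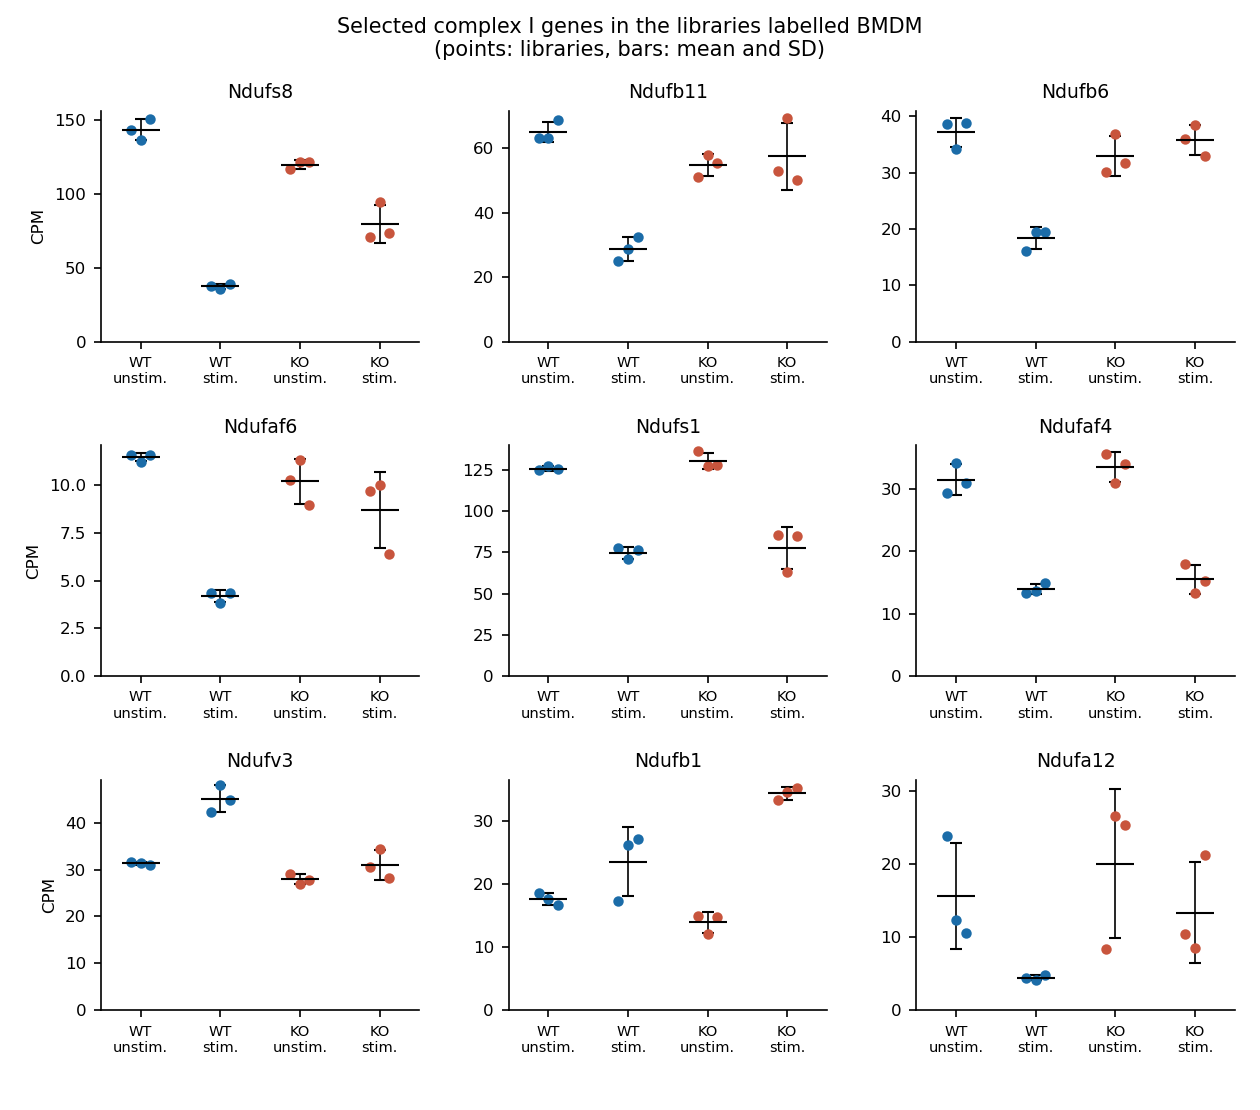
CPM (y axis, from 0) of 9 members in the 12 libraries labelled BMDM by group, with points for libraries and bars for the mean ± SD. Ndufs8, Ndufb11, Ndufb6 and Ndufaf6 are lowest in stimulated wildtype cells, Ndufs1 and Ndufaf4 are low in both stimulated groups, Ndufv3 is highest in stimulated wildtype cells, Ndufb1 is highest in stimulated iNOS KO cells, and Ndufa12 scatters within groups.

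In the proximal membrane arm 6 of 9 subunits were higher in stimulated iNOS KO cells and 6 had a positive interaction, with a median of 0.44. Ndufa3, Ndufs5 and Ndufa8 led with 0.75 ± 0.19, 0.79 ± 0.12 and 0.58 ± 0.10 (SE), while Ndufa1, Ndufa10 and Ndufa11 had 0.12 ± 0.18, 0.20 ± 0.12 and 0.01 ± 0.15 and did not pass. Ndufab1 had an interaction of 0.60 ± 0.10 (SE, edgeR adjusted p = 0.000201). Summed by module, the levels in stimulated iNOS KO cells were 100.4% of the unstimulated wildtype mean in the distal arm, 104% in the proximal arm, 91.8% in the N module and 84.6% in the Q module. In stimulated wildtype cells the same sums were 65.3%, 87.4%, 79% and 68.9%.

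**Figure D4:**
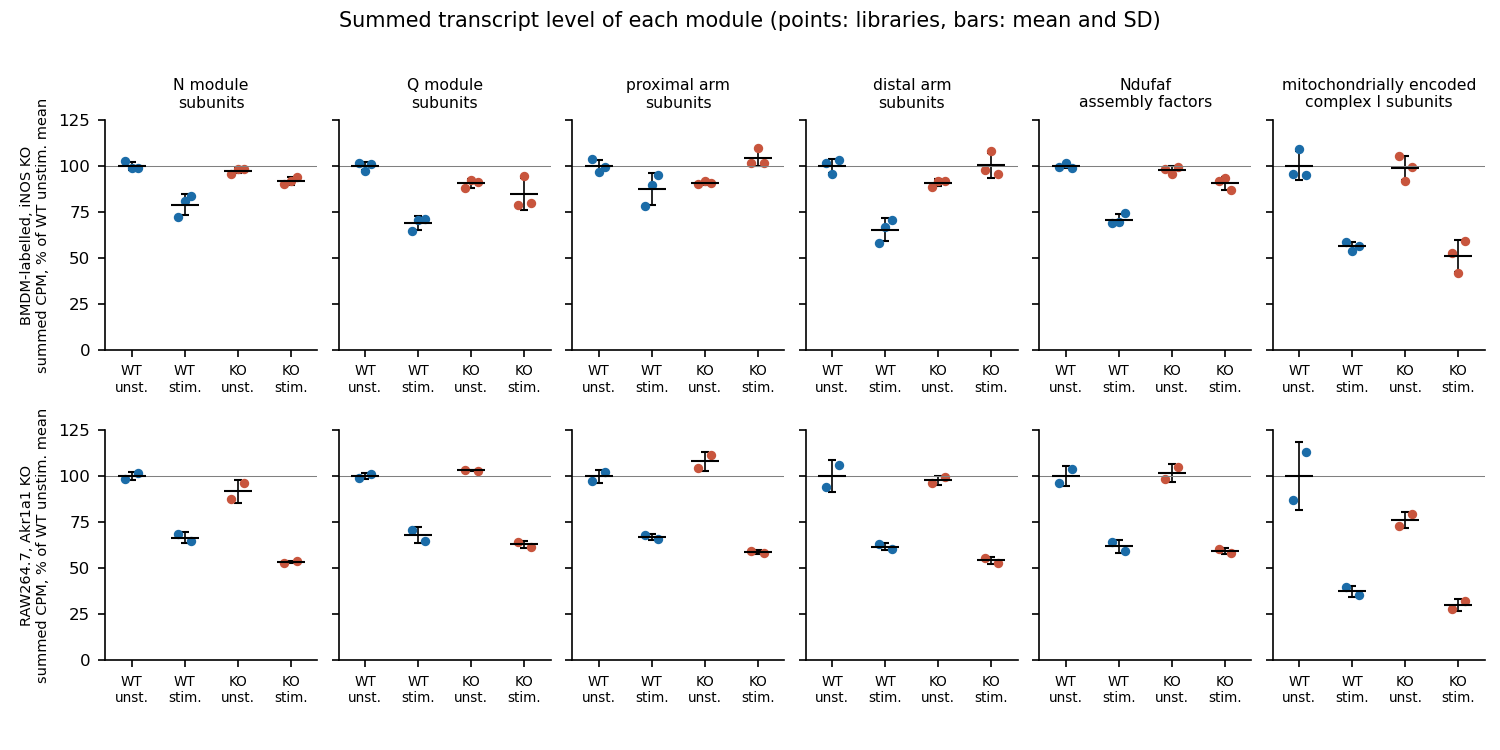
Summed CPM of each module as a percent of its mean in unstimulated wildtype libraries of the same experiment (y axis, from 0), by group, with points for libraries and bars for the mean ± SD. In the libraries labelled BMDM the stimulated wildtype means of the 5 nuclear groups lie between 65.3% and 87.4% and the stimulated iNOS KO means between 84.6% and 104%, while the mitochondrially encoded group lies at 56.2% and 51.1%.

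Of the 8 Ndufaf genes 5 were higher in stimulated iNOS KO cells and 4 had a positive interaction. Ndufaf6 had 10.3, 11.3 and 8.98 CPM in unstimulated and 9.71, 10.0 and 6.39 CPM in stimulated iNOS KO libraries, which overlapped, and an interaction of 1.22 ± 0.22 (SE, edgeR adjusted p = 0.000328). Its difference between stimulated genotypes was 1.05 ± 0.17 (SE, edgeR adjusted p = 6.27e-05). Ndufaf4 had 35.6, 31 and 34 CPM unstimulated and 17.9, 13.3 and 15.2 CPM stimulated in iNOS KO cells, again without overlap, with an interaction of 0.07 ± 0.15 (SE, edgeR adjusted p = 0.793). Its partner Ndufaf3, in contrast, had one of 0.84 ± 0.16 (SE, edgeR adjusted p = 0.000626). Ndufaf1, a core member of the complex that assembles the membrane arm, and Ndufaf5, which hydroxylates Ndufs7, had 0.40 ± 0.12 and 0.60 ± 0.16 (SE), and both were called. Ndufaf7, a methyltransferase, and Ndufaf8, the partner of Ndufaf5, had -0.12 ± 0.18 and 0.09 ± 0.15 and were not.

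Complex I assembly also needs factors without an Nduf name, of which 11 of 12 listed were tested. In libraries labelled BMDM 2 of them rose and 7 fell in stimulated wildtype cells, where 32.4% of all genes rose and 28.5% fell. In iNOS KO cells 0 rose and 6 fell, where 27.3% and 24.6% of all genes did. The interaction was positive and called for Aifm1, Acad9 and Tmem186, at 0.92 ± 0.11, 0.41 ± 0.12 and 0.43 ± 0.15, and negative for Timmdc1, at -0.48 ± 0.14. Of these 11 genes 3 had a positive and 1 a negative interaction, and of 9 tested regulators of respiratory chain genes again 3 and 1. Of all genes 20.0% and 15.4% did, so neither list is set apart by its interaction counts. The positive regulators were Pprc1, a coactivator, Gabpb1, a GABP subunit, and Tfam, a transcription and packing factor of mitochondrial DNA, at 0.96 ± 0.11, 0.71 ± 0.13 and 0.54 ± 0.16. Nrf1, which encodes nuclear respiratory factor 1, was the negative one, at -0.81 ± 0.13 (SE, edgeR adjusted p = 7.79e-05).

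The 7 complex I subunits encoded by mitochondrial DNA were lower after stimulation in both genotypes. In libraries labelled BMDM all 7 fell in stimulated wildtype cells, with a median of -1.01, and 6 of 7 fell in iNOS KO cells, with a median of -0.95. Their summed level was 56.2% of the unstimulated wildtype mean in stimulated wildtype and 51.1% in stimulated iNOS KO cells, against 73.8% and 93.7% for the nuclear structural subunits. Between stimulated genotypes 3 of the 7 were lower and none higher in iNOS KO cells, and mt-Nd4 had the only called interaction, -0.55 ± 0.18 (SE, edgeR adjusted p = 0.0243). The libraries were enriched for poly-A RNA, and how far this touches mitochondrial transcripts was not tested. Of 34 tested nuclear subunits of complexes III, IV and V, 9 rose and 20 fell in stimulated wildtype cells (median -0.35). In iNOS KO cells 20 rose and 1 fell (median 0.22, on the TMM scale), and 26 had a positive and 0 a negative interaction (median 0.49). Of all genes 32.4% rose and 28.5% fell in wildtype, 27.3% and 24.6% in iNOS KO cells, and 20.0% and 15.4% had such interactions. Of the 47 Nduf members 27 had a positive interaction (median 0.44), so this pattern was not particular to complex I.

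Several members share sequence or positions with other genes. Ndufa12 (ENSMUSG00000020022, chromosome 10, 94034582 to 94057305, plus strand), an N module subunit, and its paralog Ndufaf2, which holds its place during assembly, were compared as a pair. Ndufa12 scattered within groups, at 23.9, 12.3 and 10.6 CPM in unstimulated and 4.43, 4.05 and 4.78 CPM in stimulated wildtype libraries, and 8.33, 26.6 and 25.3 and 10.3, 8.44 and 21.2 CPM in iNOS KO libraries. Only the stimulated wildtype libraries were both low and alike. Its log2 fold changes were -1.82 ± 0.45 (SE, edgeR adjusted p = 0.00206) in wildtype and -0.58 ± 0.38 (SE, edgeR adjusted p = 0.229) in iNOS KO cells, with 1.60 ± 0.46 (SE, edgeR adjusted p = 0.00805) between stimulated genotypes and an interaction of 1.25 ± 0.60 (SE, edgeR adjusted p = 0.121). Ndufaf2 had -0.19 ± 0.13 (SE, edgeR adjusted p = 0.226), 0.09 ± 0.12 (SE, edgeR adjusted p = 0.599), 0.53 ± 0.13 (SE, edgeR adjusted p = 0.00299) and 0.28 ± 0.18 (SE, edgeR adjusted p = 0.27) for the same 4 comparisons.

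The pseudogene Ndufa12-ps on chromosome 5 is 402 bases long and matches the Ndufa12 transcript, of 1110 bases, at 400 of them. How many reads could be assigned to either was not tested. The differences, from GENCODE's GRCm38 annotation and transcript Ndufa12-201, are A135G and T414C, with positions counted from 1 at the first base of the coding sequence, the member's base first and the pseudogene's last. Each is shown with 13 bases on either side and the differing base in capitals.
Ndufa12 at A135G: aagacaaatatggAaataaatactacg
Ndufa12-ps at A135G: aagacaaatatggGaataaatactacg
Ndufa12 at T414C: ttcatgaatgggtTccaccttcgacac
Ndufa12-ps at T414C: ttcatgaatgggtCccaccttcgacac

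Of the counts given to either, Ndufa12 held 16.4% to 49.2% in single libraries labelled BMDM. With both added together, an alternative chosen after the values were seen, the log2 fold changes were -1.04 (edgeR adjusted p = 2.36e-06) in wildtype, -0.22 (edgeR adjusted p = 0.158) in iNOS KO cells, 0.75 (edgeR adjusted p = 0.000158) between stimulated genotypes and 0.82 (edgeR adjusted p = 0.00181) for the interaction. The interaction of the sum passed the test, and that of Ndufa12 alone did not. For Ndufa12 alone the call between stimulated genotypes was lost without replicate C of stimulated iNOS KO cells, at 1.09, and its interaction passed without replicate B of that group, at 1.49. Copies with at least 94.8% identity to Ndufab1, Ndufb4, Ndufs5, Ndufs6 and Ndufa11 exist as well, and adding their counts left the interaction calls of these 5 as they were.

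Ndufa4, first assigned to complex I and now placed with cytochrome c oxidase, and Ndufa4l2, its hypoxia-induced paralog, differed in level. Ndufa4 had 94.4, 94.7 and 92.6 CPM in unstimulated and 70.4, 86.5 and 88.9 CPM in stimulated wildtype libraries labelled BMDM, a change of -0.20 ± 0.08 (SE, edgeR adjusted p = 0.0428) whose call was lost with any of 8 libraries left out, and -0.10 ± 0.08 (SE, edgeR adjusted p = 0.305) in iNOS KO cells. Its interaction was 0.09 ± 0.11 (SE, edgeR adjusted p = 0.577). Ndufa4l2 stayed between 0 and 0.169 CPM in all 20 libraries, so no fold change is given.

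Counts of 17 members could include reads of an overlapping gene with 100 or more counts, since the strand setting of the counting is not given in the sources used here. Rbm10, on the other strand over Ndufb11, changed by -0.72 in stimulated wildtype cells labelled BMDM and had an interaction of 0.49. Eef1b2, over Ndufs1, had -1.57 and 1.77, and Impdh2, over Ndufaf3, had -2.78 and 2.58. The members with the largest rises in iNOS KO cells overlap such genes as well. In libraries labelled BMDM Cpsf2, over Ndufb1, held 21422 counts against 4452, and Tfpt, over Ndufa3, 3366 against 4677. Their part in the members' values was not tested. Ndufs8, Ndufb4, Ndufaf6 and Ndufv3 overlap no gene with that many counts.

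In RAW264.7 cells stimulation lowered complex I transcripts in both genotypes. In wildtype 28 members fell and 1 rose, where 19.2% of all 19569 genes fell and 18.5% rose, with a median of -0.69. In Akr1a1 KO cells 28 fell and 0 rose by edgeR, where 19.4% and 19.8% of all genes did, with a median of -0.78. Past an absolute log2 fold change of 1 were 7 lower and 0 higher members in wildtype, where 12.5% and 12.0% of all genes were, and 15 lower and 0 higher in Akr1a1 KO cells, where 12.9% and 13.3% were. Every stimulated library lay below every unstimulated one for 34 members in wildtype and 42 in Akr1a1 KO cells, where 35.3% and 35.4% of all genes did so, and above for 1 member in each, where 33.0% and 36.6% did. Without TMM the medians of all genes moved by -0.23 and -0.16. The structural subunits summed to 66.6% of the unstimulated wildtype mean in stimulated wildtype and 58.1% in stimulated Akr1a1 KO cells, against 99.8% in unstimulated Akr1a1 KO cells. The 2 responses share no library, and 25 members fell in both, 89.3% of each list. The overlap over all genes is not given here, so this one is not shown to be particular to the members. The 2 unstimulated wildtype libraries disagreed for Ndufb5, at 28.4 and 64.9 CPM, and for Ndufc1, at 18 and 39.8 CPM, and neither passed the test. Without replicate B of unstimulated wildtype cells, whose title and treatment field differ, 21 members were lower in wildtype, with a median log2 value of -0.65. Without that of unstimulated Akr1a1 KO cells 23 were lower in Akr1a1 KO cells, with a median of -0.75. With each library left out in turn, 21 of the 29 calls in wildtype and 23 of the 28 in Akr1a1 KO cells were kept every time.

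Of the members called, Ndufs8 fell the most here too. It had 107 and 132 CPM in unstimulated and 43.1 and 47.3 CPM in stimulated wildtype libraries, and 137 and 143 and 47.6 and 40.3 CPM in Akr1a1 KO libraries. The stimulated libraries lay below all unstimulated ones, with log2 fold changes of -1.40 ± 0.15 (SE, edgeR adjusted p = 0.00016) in wildtype and -1.67 ± 0.15 (SE, edgeR adjusted p = 6.34e-05) in Akr1a1 KO cells. Ndufb6 and Ndufaf7 came next in wildtype, at -1.35 ± 0.21 (SE, edgeR adjusted p = 0.00118) and -1.18 ± 0.20 (SE, edgeR adjusted p = 0.00224), and Ndufb11 and Ndufaf4 in Akr1a1 KO cells, at -1.48 ± 0.13 (SE, edgeR adjusted p = 5.98e-05) and -1.33 ± 0.17 (SE, edgeR adjusted p = 0.00048). Also past a log2 value of -1 in wildtype were Ndufs7 at -1.07 ± 0.12, Ndufa5 at -1.06 ± 0.20, Ndufb11 at -1.02 ± 0.13 and Ndufaf4 at -1.03 ± 0.17 (SE). In Akr1a1 KO cells these were Ndufb6 at -1.28 ± 0.21, Ndufaf7 at -1.22 ± 0.20, Ndufv1 at -1.21 ± 0.12, Ndufa10 at -1.21 ± 0.16, Ndufb3 at -1.17 ± 0.18, Ndufaf6 at -1.13 ± 0.24, Ndufa4 at -1.11 ± 0.13, Ndufa1 at -1.08 ± 0.16, Ndufc2 at -1.08 ± 0.14, Ndufs7 at -1.07 ± 0.12, Ndufs1 at -1.06 ± 0.16 and Ndufb4 at -1.01 ± 0.15. Ndufa7 rose in wildtype, by 0.35 ± 0.11 (SE, edgeR adjusted p = 0.0386), a call lost with any of 5 libraries left out, and had 0.19 ± 0.11 (SE, edgeR adjusted p = 0.227) in Akr1a1 KO cells.

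By module, lower calls in wildtype and Akr1a1 KO RAW264.7 cells numbered 4 and 5 of 8 in the N module, 5 and 6 of 8 in the Q module, 6 and 6 of 9 in the proximal arm, 7 and 6 of 11 in the distal arm and 5 and 4 of 8 among the Ndufaf factors. The distal arm had the lowest medians, -0.81 and -0.91. Ndufa12 had -1.80 ± 0.71 (SE, edgeR adjusted p = 0.0806) and -1.45 ± 0.70 (SE, edgeR adjusted p = 0.138), and with its pseudogene added -0.72 (edgeR adjusted p = 0.049) and -1.02 (edgeR adjusted p = 0.0112). Ndufaf2 had -0.85 ± 0.26 (SE, edgeR adjusted p = 0.0304) and -0.68 ± 0.26 (SE, edgeR adjusted p = 0.067), the first call also lost with any of 5 libraries left out. Ndufa4, which changed by -0.20 in wildtype libraries labelled BMDM, had -0.84 ± 0.13 (SE, edgeR adjusted p = 0.0012) and -1.11 ± 0.13 (SE, edgeR adjusted p = 0.000272) here.

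No member passed the test between Akr1a1 KO and wildtype RAW264.7 cells. In simulated counts with this experiment's common dispersion, 34% of planted log2 differences of 1 between stimulated genotypes were recovered, and 99% of 2. The same simulation recovered 100% of both in the first experiment. Every simulated gene had the common dispersion, whereas the members had a median SE of 0.15 in this comparison. These shares therefore need not hold for the members, whose power was not simulated. The lack of calls here does not show that members were unchanged. Unstimulated, 0 members were higher and 0 lower by edgeR, where 0.230% and 0.353% of all genes were. By DESeq2 0 were called, and 0 had an unadjusted p under 0.05. Every Akr1a1 KO library lay above every wildtype library for 11 members and below for 8, where this held for 17.8% and 23.9% of all genes. Stimulated, 0 were higher and 0 lower, where 0.0869% and 0.199% of all genes were. Here 7 had an unadjusted p under 0.05, DESeq2 called 1 lower, and the median was -0.15. Every stimulated Akr1a1 KO library lay below every stimulated wildtype library for 21 members and above for 2, where this held for 18.6% and 19.9% of all genes. For the interaction 0 were called by edgeR, where 0.00511% of all genes were positive and 0.0153% negative, 1 had an unadjusted p under 0.05 and DESeq2 called 0. For Ndufs8 the interaction was -0.27 ± 0.20 (SE, edgeR adjusted p = 0.918), against an SE of 0.13 for the interaction in the first experiment.

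The wildtype responses of the 2 experiments share no library and were set side by side. Over the 46 members with counts above the floor in both, Pearson's r of the log2 fold changes was 0.734 and Spearman's rho 0.673, a description across genes, which are not independent replicates. The sign was the same in 40. Of the 28 members that fell in each, 22 fell in both, 78.6% of each list. The correlation, sign agreement and overlap over all genes are not given here. The likeness of the 2 responses is therefore not shown to be particular to the members. Ndufa7 rose in both, and Ndufa1, a small proximal arm subunit encoded on the X chromosome, rose by 0.52 ± 0.13 (SE, edgeR adjusted p = 0.00217) in the libraries labelled BMDM and fell by 0.87 in RAW264.7 cells (log2, edgeR adjusted p = 0.00253).

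**Figure D5:**
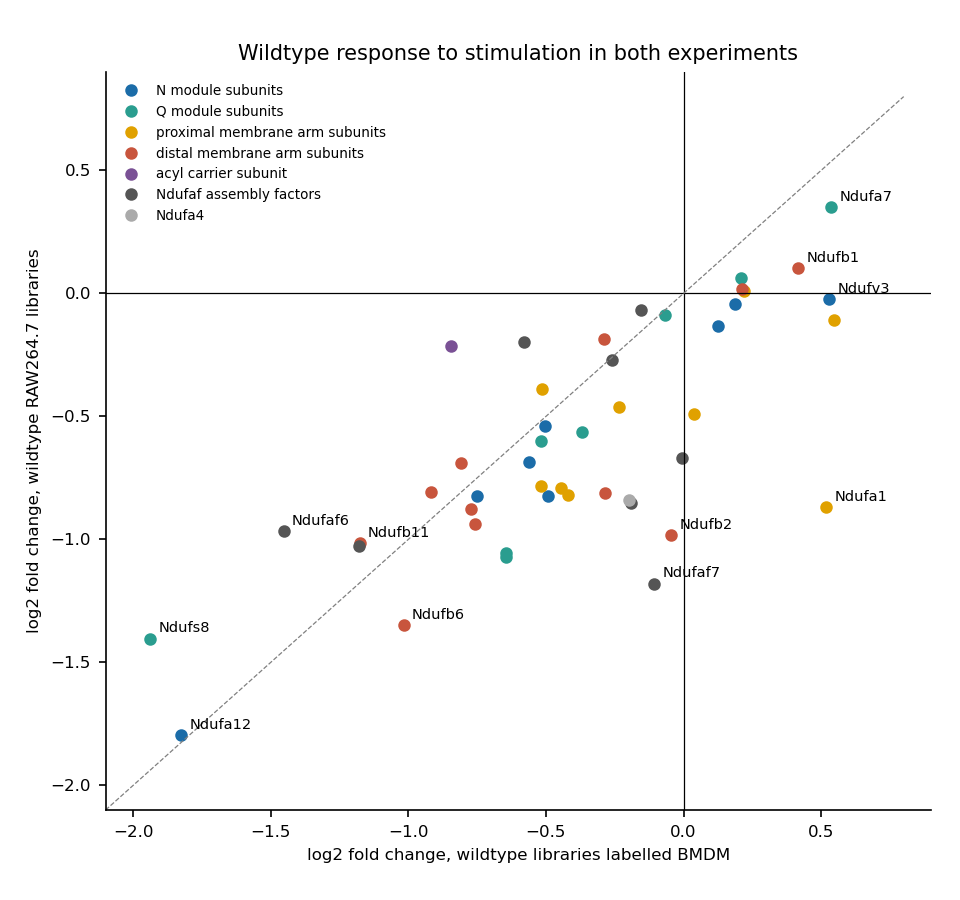
Log2 fold change with stimulation in wildtype libraries labelled BMDM (x axis) against that in wildtype RAW264.7 cells (y axis) for 46 members coloured by module, with a dashed line for equal change. Most points lie in the lower left, Ndufa12 and Ndufs8 farthest from the origin, and Ndufa1 lies in the lower right.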

How the data were processed

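Gene counts from poly-A RNA-seq of 20 libraries were re-analysed. After filtering, the authors used STAR and mm10 for alignment, and the whole-number counts per gene were deposited unnormalized, with 0 columns of other samples. The strand setting is not given in the sources used here, and the tables name no build. Positions are given as the tables list them, and those of 45 of the 48 members differ from GENCODE's on GRCm38 (mm10), so they should not be read as mm10 positions. Promoter positions are from GRCm38.p6. Groups came from the labels. The study's methods call the replicates biological in the first experiment and independent clones in the second, and the labels do not say which culture, animal or clone a letter marks. Tests covered genes whose counts summed to 10 or more (18691 and 19569), with TMM scaling, 1 mean per group and edgeR's quasi-likelihood F test (edgeR 4.0.16, R 4.3.3), 2-sided, with Benjamini-Hochberg adjustment over all genes tested in each comparison and calls at an adjusted p under 0.05. Common dispersions were 0.0084 (labelled BMDM) and 0.0522 (RAW264.7). A gene with 3 counts or fewer in every library of both groups got no fold. The members and lists were chosen with earlier results of these data known. Full statistics were given for the 3 called members with the largest rise and fall in each comparison, members called past a log2 value of 1, the pairs Ndufa12 and Ndufaf2 and Ndufa4 and Ndufa4l2, the core subunits, and Nos2 and Akr1a1, except that the values of 1 member are not reported here but enter the counts, sums and medians; other named members were chosen after their values were seen.

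The fits were tested on simulated data with known changes before use. Pseudogene identities were computed with Biopython 1.88 on GENCODE transcripts, promoters came from RefSeq, and no protein sequences were used here. The alternatives were DESeq2 1.42.0, its size factors, other filters, the replicate letter as a block, a fold change limit, each library left out and, chosen after seeing the data, library totals without TMM and pseudogene counts added.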

Additional observations from a re-analysis of the deposited data

Results flagged for a closer look

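In the libraries labelled BMDM, 28 members had responses to stimulation that differed between wildtype and iNOS KO cells by the interaction test itself (edgeR, adjusted p under 0.05), and their values are the iNOS KO response minus the wildtype response in log2. In the N module these were Ndufv3 (-0.38), Ndufv1 (0.37), Ndufv2 (0.50), Ndufs6 (0.50) and Ndufs4 (0.51). In the Q module they included Ndufa9 (0.47), Ndufs7 (0.52), Ndufa5 (0.58) and Ndufs8 (1.34). In the proximal membrane arm they were Ndufa13 (0.36), Ndufc2 (0.44), Ndufc1 (0.50), Ndufa8 (0.58), Ndufa3 (0.75) and Ndufs5 (0.79). In the distal membrane arm they were Ndufb3 (0.61), Ndufb1 (0.89), Ndufb8 (1.00), Ndufb7 (1.03), Ndufb4 (1.06), Ndufb6 (1.14) and Ndufb11 (1.24), and the acyl carrier subunit was Ndufab1 (0.60). Among the assembly factors they were Ndufaf1 (0.40), Ndufaf5 (0.60), Ndufaf3 (0.84) and Ndufaf6 (1.22). Of the 28, 27 were positive, where 20.0% of all genes tested were called positive, and Ndufv3 alone was negative.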

How the results depend on the processing

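Asking for an absolute log2 fold change over 1 left 0 members higher and 6 lower in stimulated wildtype and 1 and 1 in stimulated iNOS KO libraries labelled BMDM, 3 higher and 0 lower between stimulated genotypes and 6 positive and 0 negative interactions, and in RAW264.7 cells 0 higher and 7 lower in wildtype and 15 lower in Akr1a1 KO cells. With library totals in place of TMM, chosen after seeing the data, 0 members rose in wildtype libraries labelled BMDM and in wildtype RAW264.7 cells, and 3 rose and 29 fell in iNOS KO cells. There 3 of the 35 members called in wildtype (Ndufa13, Ndufb1 and Ndufs3, the last at -0.25) and 8 of the 21 called in iNOS KO cells (Ndufa2, Ndufaf1, Ndufaf5, Ndufb4, Ndufb7, Ndufc1, Ndufs5 and Ndufs3, the last at -0.0146) turned from higher to below 0, as did Ndufaf2, which was not called, at -0.33 in iNOS KO cells. The median over members ranged from -0.88 to -0.35 in wildtype and from -0.35 to 0.07 in iNOS KO cells over all alternatives, the lower ends without TMM, and from 0.39 to 0.50 for the interaction. With no filter on low counts 1 member was lower in unstimulated iNOS KO libraries labelled BMDM, 0 rose in wildtype and 2 were lower in stimulated Akr1a1 KO RAW264.7 cells, where DESeq2 gave 1. The cause was not tested.

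Leaving out 1 library at a time gave, in libraries labelled BMDM, 4 to 10 members higher and 26 to 29 lower in wildtype, 13 to 17 higher and 4 to 10 lower in iNOS KO cells, 0 to 7 lower between unstimulated genotypes, 26 to 30 higher and 2 to 3 lower between stimulated genotypes, and 24 to 29 positive and 0 to 1 negative interactions. In RAW264.7 cells it gave 0 to 1 higher and 21 to 27 lower in wildtype and 23 to 32 lower in Akr1a1 KO cells. The 7 and the 10 lower members came without replicate B of stimulated iNOS KO cells, and the 4 higher ones without replicate C of stimulated wildtype cells.

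Deviations from the group means correlated at -0.0969 to 0.102 over 18 same-lettered pairs labelled BMDM. In RAW264.7 cells the range was -0.0959 to 0.254 over 12 pairs, the highest between unstimulated and stimulated libraries of a genotype (0.254 in wildtype and 0.104 in Akr1a1 KO cells), and Akr1a1 was higher in replicate A than B of both Akr1a1 KO groups (206 and 21.8 CPM unstimulated, 370 and 212 CPM stimulated). Whether a letter marks the same clone in 2 groups is not stated. Pairs within a genotype passed 0.1 and those across genotypes did not, and the letter was not taken as a pairing in the fit. If a letter marks a clone, the stimulation tests in RAW264.7 cells left that pairing out. The replicate block fits 1 effect per letter over both genotypes, so it does not test a pairing of clones within a genotype. With the letter as a replicate block, the libraries labelled BMDM gave 7 higher and 26 lower members in wildtype, 16 and 6 in iNOS KO cells, 28 and 2 between stimulated genotypes and 27 and 1 for the interaction, and RAW264.7 cells 28 lower in each genotype and 0 higher in wildtype. Of 560 values of named members under the other alternatives in libraries labelled BMDM, 532 kept their direction and side of the threshold, and of 296 in RAW264.7 cells 285 did. The median SE over members of the log2 difference between stimulated genotypes was 0.15 in RAW264.7 cells, with 2 libraries per group, and 0.10 in libraries labelled BMDM, with 3. The common dispersions differed as well, at 0.0522 and 0.0084, so the SEs do not differ by the number of libraries alone.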
